A study of Salix linearistipularis with 24 samples.

Results

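Among the transcripts assembled from roots of *Salix linearistipularis*, a dioecious willow, some were listed in male libraries and at 0 in every female library. The 150 genes described here were the strongest of them. They were taken from 139844 genes, of which 10869 were at 0 FPKM in all 12 female libraries, by the highest value of a score, the lowest of the 4 male group means. FPKM is the number of sequenced fragments scaled for the length of the transcript and the size of the library, so it is comparable between genes of different length. A gene is here a cluster of related contigs, whose FPKM were summed, or a single unigene.

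Female and male cuttings stood in hydroponic culture in water (0 mM NaCl, control), or for 6, 12 or 24 h in NaCl at 100 mM, and RNA of whole root samples was sequenced in 3 libraries for each of the 8 groups. Which of these times the control roots stand for is not stated. According to the sample labels all male cuttings came from 1 male tree and all female cuttings from 1 female tree, whereas the methods describe trees of several populations and independent experiments. With 1 tree for each sex, a difference between the sexes and a difference between these trees cannot be told apart, and p-values measure only the spread between libraries, which may be technical. The rows carry IDs and no gene names, so root markers were not looked up and the members have no stated function.

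In willows, sex is set by a sex-linked region of the genome. A gene carried only by a form of that region found in 1 sex can be transcribed in only that sex. Which sex has such a form in this species is not stated in the sources used. Many other genes are carried by both sexes and differ in level, or differ between individual trees in sequence or presence. In a de novo assembly a transcript is rebuilt from the reads themselves, alleles of 1 gene can become separate contigs, and 0 FPKM says only that no fragment was assigned to that contig at the depth of the library.

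Genes at 0 in all female libraries became rarer as the male level rose. The lowest male group mean was at least 0.193 FPKM, the score of the last member, in 39306 genes, and 156 of them (0.397%) were at 0 in all female libraries. At 1 FPKM or more there were 15 of 18026 genes (0.0832%), at 2 FPKM or more 4 of 12487 (0.032%), at 5 FPKM or more 1 of 7429 (0.0135%), and at 10 FPKM or more 0 of 4452. With the sexes exchanged, 1158 of 45753 genes (2.53%) at the same level in female roots were at 0 in all 12 male libraries, and 109 of 21736 (0.501%) at 1 FPKM or more. These counts follow from the way the genes were chosen and were not tested.

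**Figure D1:**
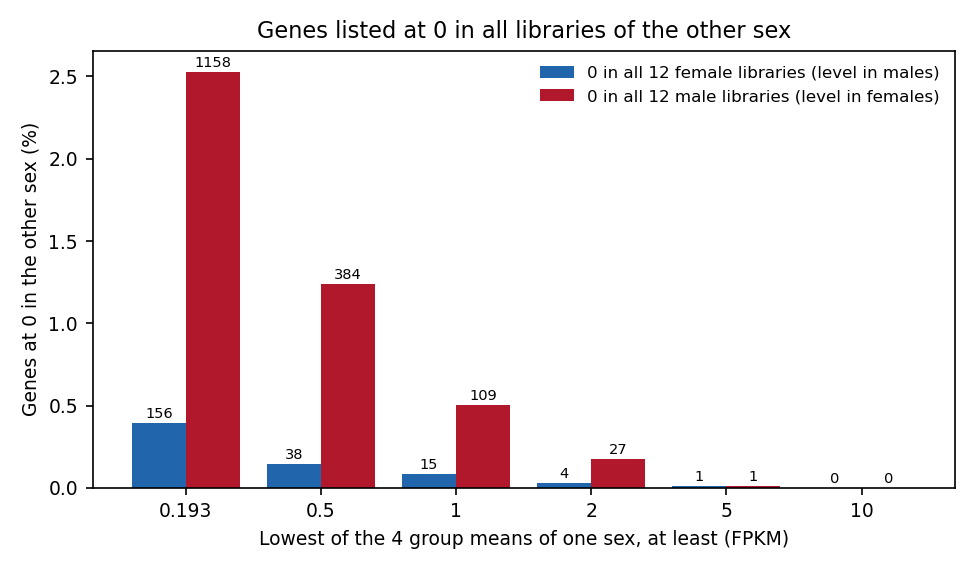
Percent of genes listed at 0 FPKM in all 12 libraries of the other sex (vertical axis), among genes whose lowest group mean reaches the value on the horizontal axis (FPKM), for genes expressed in male (blue) and in female roots (red). The number above each bar is the number of genes; 156 genes at 0.193 FPKM and 15 at 1 FPKM were male only, against 1158 and 109 female only.

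Most members were weakly expressed. The score ran from 7.31 FPKM in CL14390 to 0.193, with a median of 0.293. Only 15 members had every male group mean at 1 FPKM or more, and 2 had 1 FPKM or more in all 12 male libraries. At the lower edge, Unigene7978 and Unigene96389 (score 0.197 each) and Unigene103932 (0.193) were the last inside. Unigene107476, Unigene1526 and Unigene15618, also at 0.193, were the first outside, since 7 genes shared that score and 1 was taken by its ID. Unigene96389 was read in a single library of each group, at 0.59 FPKM in control, 0.61 at 6 h, 0.59 after 12 h and 0.60 after 24 h, and was listed at 0 in the other 8 male libraries. A score at this edge can therefore rest on 1 library of each group, with nearly the same low value every time. At the other border, 60 genes reached the same male level but had a highest female value above 0 and at most 0.1 FPKM. Unigene45714 led them, with a score of 3.09 FPKM and at most 0.08 FPKM in a female library, followed by Unigene13939 (2.78 and 0.08) and Unigene28763 (2.36 and 0.04). The line between 0 and a trace thus separated genes of similar male level.

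Among the 150 members, 41 were above 0 in all 12 male libraries, 45 in 11, and 27 in 8 or fewer, with a minimum of 4. There were 39150 other genes with as high a score, meaning 0.193 FPKM or more, and FPKM above 0 in at least 1 female library. Of these other genes, 82.1% were above 0 in all 12 male libraries. Their level was higher, with a median control mean of 3.12 FPKM against 0.693 FPKM for the members. Shares of zeros in members and other genes are therefore not compared at like level. The number of members at 0 was 13, 21 and 21 in the control libraries, 18, 19 and 12 after 12 h, and 30, 21 and 17 after 24 h. It was 28, 33 and 43 at 6 h, and the third 6 h library had the most zeros, 28.7% of members against 4.90% of the other genes. Of the 45 members at 0 in just 1 male library, 19 were at 0 in that library, 7 in the second and 4 in the first 6 h library. Without the third 6 h library, 60 members were above 0 in all 11 remaining male libraries.

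The third 6 h library, and in part the second, stood apart from their labels. The genes at 0.5 FPKM or more in the other 11 male libraries and at 0 in all female libraries numbered 16. All were members, which the rule of choice fixes at such levels. Of the 16, 7 were at 0 in the library labelled male NaCl 6 h replicate 3. In the mirror check, 225 genes had at least 0.5 FPKM in every female library and 0 in the other male libraries, and 69 of them (30.7%) were above 0 in it, with a median of 0.16 FPKM. Each of the 9 male libraries of the other groups, checked the same way, had 0 male-marking genes at 0 and between 1 and 11 of 157 to 167 female-marking genes above 0. The first 6 h library had 1 of 10 male-marking genes at 0 and 7 of 163 female-marking genes above 0, and the second 3 of 11 and 12 of 168. With a limit of 0.1 FPKM in place of 0.5, the second 6 h library also had 95 of 715 female-marking genes above 0, beside 124 of 744 in the third and at most 20 of 640 in a male library of another group. With a limit of 1 FPKM, male-marking genes at 0 numbered 3 of 5 in the second and 5 of 7 in the third. They numbered 0 in the libraries of the other male groups. Among the female libraries, with the limit of 0.5 FPKM, female control replicate 2 had 3 of 11 male-marking genes above 0. Female NaCl 6 h replicates 1 and 2 each had 2 of 10. The female NaCl 24 h libraries had 3 of 171, 6 of 179 and 6 of 182 female-marking genes at 0. The 3 male 6 h libraries also resembled each other less than replicates elsewhere, with Pearson correlations of 0.739 to 0.787 over 95202 genes, against 0.966 to 0.977 in the other groups. The first had mean correlations of 0.790 with male 24 h, 0.789 with male control and 0.775 with the other male 6 h libraries. For the second these were 0.813, 0.744 and 0.763, and for the third 0.748, 0.686 and 0.751. The results on the 6 h group rest on these libraries, and the part of the deviations in those results was not tested.

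**Figure D2:**
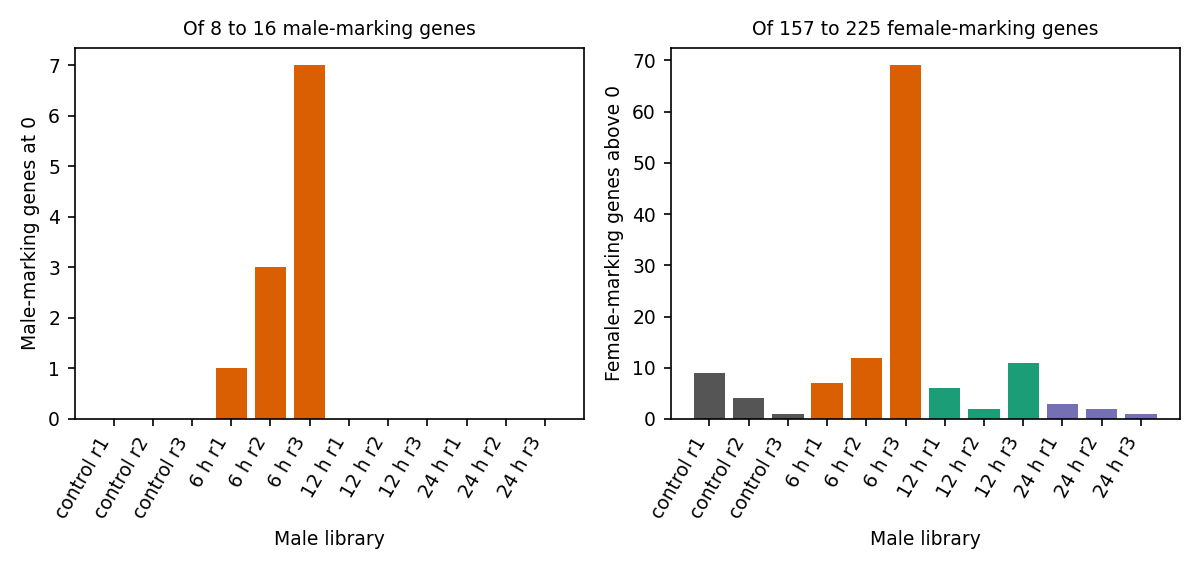
Number of male-marking genes listed at 0 FPKM (left) and of female-marking genes above 0 FPKM (right) in each male library, with bars coloured by group; a marking gene had at least 0.5 FPKM in all other libraries of its sex and 0 in the other sex, the library itself left out. The library labelled male NaCl 6 h replicate 3 has 7 of 16 and 69 of 225, and the libraries outside the 6 h group have 0 and 1 to 11.

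CL14390 had the highest score. Its summed contigs gave 13.86, 15.81 and 16.43 FPKM in control roots, 8.37, 17.04 and 0 at 6 h, 13.33, 10.57 and 12.41 after 12 h, and 7.16, 7.25 and 7.52 after 24 h. The 24 h values lay below all control and 12 h values, the 12 h values below the control values, and the 6 h libraries spanned the whole range. By limma CL14390 fell by 1.02 on the log2 scale at 24 h against control (SE 0.09, adjusted p = 5.15e-06), and its 12 h difference of -0.33 was under the size called here, a log2 ratio of 1. CL14390 also had, with Unigene103999 and Unigene75116, the smallest coefficients of variation over the 12 male libraries.

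The contigs behind this sum were not the same in every group. Contig 4 held most of the FPKM in control roots (9.05, 10.38 and 11.73), was lower at 12 h (3.18 to 4.23) and was listed at 0 in all 24 h libraries, and contig 2 likewise went from 1.51 to 2.18 in control roots to 0 at 24 h. Contigs 1 and 3 were listed at 0 in all control libraries and stood at 2.52 to 2.83 and 3.77 to 4.49 FPKM at 24 h. The 12 h libraries held all 5 contigs. The 6 h libraries divided along the same line: the first had contig 4 at 6.20 FPKM and contig 3 at 0, the second had contig 4 near 0 and contigs 1 and 3 at 6.93 and 6.90, and the third had no contig above 0. Without sequences of the contigs, whether they are alleles, splice forms or related genes was not tested.

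**Figure D3:**
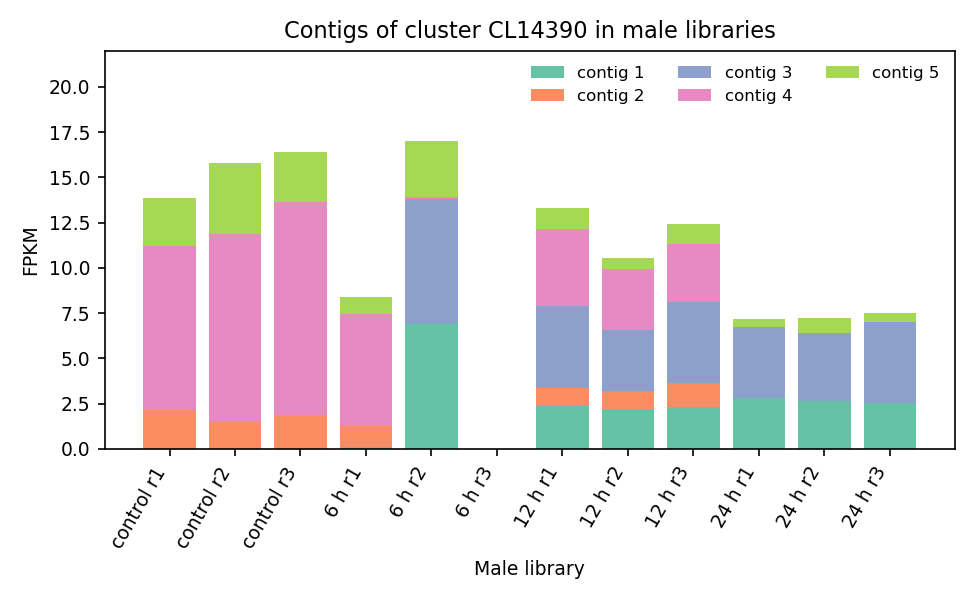
FPKM of the 5 contigs of CL14390 (stacked bars) in the 12 male libraries, by group and replicate. The control bars hold contigs 2, 4 and 5 and the 24 h bars contigs 1, 3 and 5, and the third 6 h library has no bar because all contigs are at 0.

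Clusters were few among the members. Only 9 of the 150 were clusters (6%), against 38.2% of the other genes with as high a score and 1.79% of all genes at 0 in female libraries. This share depends on the summing, since a summed cluster is at 0 only if all its contigs are. Ranked without summing, 91 of the 150 rows were contigs of clusters. Of the clusters they belong to, 83 had FPKM above 0 in a female library. The 9 member clusters were CL14390, CL622, CL10415, CL16729, CL8039, CL20225, CL19968, CL17031 and CL17852. In CL10415, contig 1 was at 0 in all control and 12 h libraries, whereas contig 2 was read in all 12 male libraries, at 0.20 to 1.38 FPKM in control roots. CL20225, with 6 contigs, had summed values of 0, 0.62 and 0.26 FPKM in control roots, 2.44, 9.06 and 8.53 at 6 h, 0.53, 1.28 and 1.77 after 12 h, and 2.68, 0.33 and 0.26 after 24 h. It was thus above its control range in all 6 h libraries, and limma called it higher at 6 h (log2 ratio 3.07, SE 0.61, adjusted p = 0.0256). Over the 9 clusters, the contig with the most FPKM was not the same in all 4 male groups in 6, against 67.1% of the other clusters.

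The next members by score fell into different courses under NaCl. Unigene7323 had 4.34, 3.13 and 2.87 FPKM in control roots, 7.29, 4.42 and 0 at 6 h, 14.14, 13.58 and 13.92 after 12 h, and 4.70, 5.47 and 5.33 after 24 h. It peaked at 12 h, where all values lay above those of every other group. Unigene24482 had 2.35, 3.29 and 4.14 FPKM in control roots, 81.43, 21.31 and 0 at 6 h, 56.26, 53.53 and 56.07 after 12 h, and 55.84, 56.87 and 57.16 after 24 h. The 12 and 24 h values were all above 50 FPKM with no overlap with the control, and the 6 h libraries ranged from 0 to the highest value of the gene. Unigene20410 went the other way, from 16.61, 17.42 and 16.75 FPKM in control roots to 3.07, 3.97 and 4.13 after 12 h and 3.03, 3.04 and 2.52 after 24 h, with 5.48, 18.59 and 0 at 6 h. Unigene31638 had 7.97, 7.02 and 7.76 FPKM in control roots, 7.66, 2.86 and 0 at 6 h, 3.97, 5.21 and 4.62 after 12 h, and 2.40, 1.40 and 2.10 after 24 h. By limma the log2 ratios at 12 h were 1.88 for Unigene7323 (SE 0.13), 3.92 for Unigene24482 (SE 0.14), -2.05 for Unigene20410 (SE 0.11) and -0.67 for Unigene31638 (SE 0.16, not called), and at 24 h 0.54 (not called), 3.95, -2.38 and -1.73. These 5 top members, CL14390 included, were all at 0 in the third 6 h library and above 0 in every other male library.

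Other members of high score were read there. Unigene75116 was at 0 in the second 6 h library, with 2.65 and 2.55 FPKM in the others, against 3.32 to 5.32 in control roots, 4.07 to 5.59 at 12 h and 1.70 to 2.09 at 24 h. CL622 had 4.48, 5.61 and 5.05 FPKM in control roots, 11.36, 5.63 and 109.37 at 6 h, 7.5, 7.71 and 6.72 after 12 h, and 1.72, 1.61 and 1.84 after 24 h. Its value in the third 6 h library was the highest of any member in any library, and its 24 h values lay below all others. Unigene103999 had 2.67 to 4.21 FPKM in control roots, 1.59 to 2.33 at 6 h, 0.76 to 2.70 at 12 h and 2.66 to 5.22 at 24 h. Unigene48928 had 3.54 to 4.87 FPKM in control roots and 1.03 to 2.06 in all 9 NaCl libraries, so that control and NaCl did not overlap, and it was called lower at all 3 times. Unigene15948, at 0 in the second 6 h library, had 1.44 to 3.38 FPKM in control roots, 4.48 to 5.75 at 12 h and 1.45 to 2.37 at 24 h.

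The 6 h group was the widest for the members. The median of the members' group means was 0.693 FPKM in control roots and 1.81, 0.728 and 0.468 after 6, 12 and 24 h. The group mean was highest at 6 h in 60 members and at 12 h in 39. It was highest in control roots in 34 and at 24 h in 17, and lowest at 24 h in 68. Of the other genes with as high a score, 16.3% were highest at 6 h and 26.0% at 12 h. Control was highest in 46.2% of them and 24 h in 11.5%, and 24 h was lowest in 43.7%. The member counts at 12 and 24 h were near these shares, and those at 6 h and in control roots were not. The order of the members depends on the scaling. With the male libraries scaled by the median of ratios, the lowest mean was that of 24 h in 24 members. It was that of control in 75, in place of 41, and 6 h was still the highest in 57. Without the 6 h group, control was the highest in 61 members, 12 h in 59 and 24 h in 30. The median coefficient of variation between the 3 libraries was 116% at 6 h, against 42.5% in control roots, 44.7% at 12 h and 47.1% at 24 h. For the other genes with as high a score it was 62.7% at 6 h and 13.3% to 17.8% elsewhere, and these genes were higher in level than the members in every group. Members with a 6 h library at 0 and another at 1 FPKM or more numbered 67, against 11 in control roots, 6 at 12 h and 12 at 24 h.

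A set of members had most of its FPKM in the first 6 h library. In 22 members a single library held at least 50% of the FPKM of all 12 male libraries. This was so in 1.74% of the other genes, which were higher in level. The library was the first 6 h library in 17 members, the second in 1 and the third in 4. The 17 had 6.97 to 35.0 FPKM in the first 6 h library (median 9.58). Over the same genes the median was 0.34 and 1.85 FPKM in the second and the third 6 h library, 0.53 in the control libraries, 0.37 at 12 h and 0.36 at 24 h. The set was thus low in level outside that library. Unigene86910 had 11.74, 0.17 and 0.76 FPKM at 6 h and 0.17 to 1.35 in the other 9 male libraries. Unigene87489 had 9.16, 0 and 1.22 FPKM at 6 h and 0.09 to 0.56 elsewhere, while Unigene116748 was highest in the third 6 h library (1.21, 0.29 and 13.87 at 6 h, and 0.17 to 1.01 elsewhere). These 3 had the largest coefficients of variation over the male libraries. Among the 70 members above 0 in all 3 male 6 h libraries, the ratio of the highest to the lowest of them was largest in Unigene11648 (33.69, 2.64 and 0.08 FPKM), followed by Unigene47043 (13.52, 0.19 and 2.91) and Unigene86910.

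**Figure D4:**
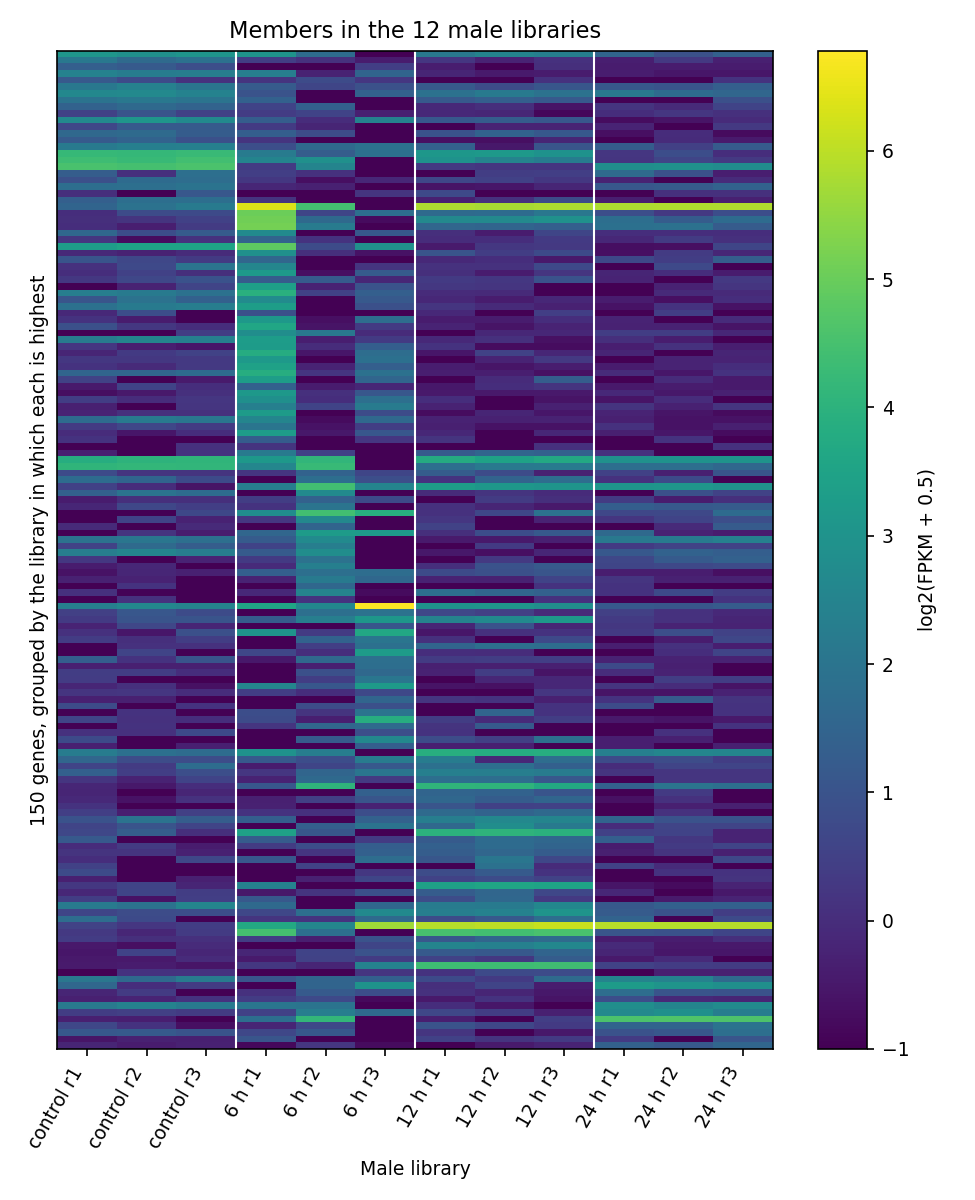
Level of the 150 members (rows, grouped by the library in which each is highest) in the 12 male libraries (columns), as log2(FPKM + 0.5); the darkest colour is 0 FPKM, and all members are at 0 in the 12 female libraries, which are not drawn. The bright block in the first 6 h column holds members with most of their FPKM in that library, and the third 6 h column has the most zeros, 43 of 150.

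The numbers of the single unigenes, which the assembly gave out, were not spread evenly over the members. Numbers 87000 to 87999 held 11 members, all of them highest in the first 6 h library, with 1.92 to 14.84 FPKM there. Of the 940 single unigenes in that range, 456 (48.5%) were at 0 in all female libraries, against 8.96% of all single unigenes. Of the 456, 389 were highest in the same library. The FPKM of the whole range summed to 1985 in the first 6 h library, 331 and 453 in the second and the third, and 36.1 to 427 in the 21 libraries of other groups. A second range, 113000 to 117999, held 8 members, and 2094 of its 2237 genes at 0 in female libraries were highest in the third 6 h library. This range held 4802 of the 119091 single unigenes, and 141 members are single unigenes, so its 8 members are not read as an excess. Of the numbers directly beside a member, 60 of 278 (21.6%) were at 0 in all female libraries. The share was 4.46% beside other single unigenes with as high a score, and 28.8% beside all single unigenes at 0 in female libraries. At a distance of 10 and 100 numbers from a member it was 12.6% and 15.8%, against 4.53% and 4.62% for the other single unigenes with as high a score. What sets the order of the numbers is not stated.

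Members with neighbouring numbers did not always share a course. Unigene30925 and Unigene30926 both had their highest or nearly highest value in the first 6 h library (32.50 and 21.72 FPKM) and low control values (0.51 to 1.23, and 0.40 to 0.78). At 12 h they separated, with 2.70 to 3.74 FPKM in Unigene30925 and 20.92 to 22.63 in Unigene30926. Unigene64248 rose to 6.89 to 9.05 FPKM at 24 h from 0.52 to 2.54 in control roots, whereas Unigene64249 had 4.22 to 5.14 in control roots and 0 to 0.54 at 24 h. Unigene87652 and Unigene87653 were alike, at 8.54 and 10.41 FPKM in the first 6 h library, 3.18 and 2.04 in the third, and at most 0.72 in the male libraries outside the 6 h group.

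The salt response of the members was compared within male roots, where it does not use the female zeros. The choice did use the 4 male group means, so a gene with a mean of 0 in any male group could not become a member, and the counts are read beside those of all genes. Genes with at least 1 FPKM in at least 3 male libraries were tested (63579, of which 109 are members, and 41 members were not tested). Ratios are on the scale of log2(FPKM + 0.5), which understates changes of weakly expressed genes, and a gene was called at a limma p-value, adjusted by Benjamini and Hochberg, of 0.05 or less if its log2 ratio was also 1 or more in size. In whole roots, fewer cells of a type and less RNA per cell cannot be told apart. The control libraries are shared by the comparisons at 6, 12 and 24 h, and the 12 h libraries by the comparisons with control and with 24 h.

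After 12 h of NaCl, 34 members were called higher and 31 lower than in control roots, where 35.5% of all genes tested were called higher and 34.7% lower (70.2% in either direction). The median log2 ratio was 0.05 for the members and 0.00 for all genes, and with the male libraries scaled by the median of ratios 41 members were called higher and 24 lower. Unigene10358 rose from 0.95, 0.67 and 0.83 FPKM in control roots to 60.35, 63.61 and 69.16 at 12 h. Unigene70125 had 0.24, 0.25 and 0.18 FPKM in control roots and 20.03, 20.14 and 20.57 at 12 h, and was back at 0.94, 0.81 and 0.77 at 24 h. The 12 h values of both genes were far above every control value and close together. By limma their log2 ratios were 5.63 (SE 0.08, adjusted p = 1e-11) and 4.84 (SE 0.11, adjusted p = 1.49e-10), followed by Unigene30926 with 4.32 (SE 0.16, adjusted p = 6.44e-09).

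Unigene26872 showed the largest fall at 12 h. It had 22.64, 21.85 and 23.20 FPKM in control roots, 0.77, 5.20 and 0 at 6 h, 0.73, 0.64 and 0.66 after 12 h, and 6.61, 6.93 and 6.39 after 24 h. The control values lay above all NaCl values, and the 24 h values lay between those of control and 12 h without overlap. Its 12 h log2 ratio by limma was -4.29 (SE 0.08, adjusted p = 3.57e-11). Unigene63570 followed, with 9.30, 10.93 and 10.88 FPKM in control roots and 0.24, 0.71 and 0.73 at 12 h (log2 ratio -3.39, SE 0.35). In Unigene23891 the control values of 4.57, 5.30 and 4.48 FPKM dropped to 0.21, 0.13 and 0.40 at 12 h and stood at 1.72, 2.22 and 2.02 at 24 h.

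After 24 h, 16 members were called higher and 33 lower than in control roots, where 18% of all genes tested were called higher and 39.6% lower (57.6% in either direction). The median log2 ratio was -0.34 for the members and -0.45 for all genes. When the male libraries were scaled by the median of ratios, the all-gene median became 0.02 and the members were 25 higher and 18 lower, with 51.0% of all calls higher in place of 31.2%. Unigene10358 kept its level, with 60.44, 59.66 and 60.06 FPKM at 24 h. Unigene30642 had 0.31, 0.29 and 0 FPKM in control roots, 0.29, 0 and 0.87 after 12 h, and 23.60, 24.36 and 23.85 after 24 h. Its 24 h values were the only high ones outside the 6 h group, where it had 3.0, 17.24 and 0. The limma log2 ratios at 24 h were 5.53 for Unigene10358, 5.16 for Unigene30642 (SE 0.33, adjusted p = 3.34e-07) and 3.95 for Unigene24482 (SE 0.14, adjusted p = 4.8e-09).

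The largest falls at 24 h were in genes that were among the highest members in control roots. Unigene49790 had 19.94, 18.30 and 20.77 FPKM in control roots, 5.15, 6.99 and 0 at 6 h, 7.28, 5.02 and 4.29 after 12 h, and 0.65, 1.01 and 0.72 after 24 h. Unigene12998 had 18.21, 17.47 and 18.79 FPKM in control roots, 4.22, 1.96 and 3.18 at 6 h, 8.21, 8.61 and 7.37 after 12 h, and 0.68, 1.30 and 0.52 after 24 h. Both stood lower at 12 h than in control roots and lower again at 24 h, with no overlap between these groups, and Unigene12998 was above 0 in all 12 male libraries. Their limma log2 ratios at 24 h were -3.97 (SE 0.18, adjusted p = 2.26e-08) and -3.85 (SE 0.18, adjusted p = 3.47e-08). Unigene63570 had 0.11, 0.12 and 1.04 FPKM at 24 h, a log2 ratio of -3.70 (SE 0.35, adjusted p = 6.41e-06).

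Between 12 and 24 h, 16 members were called higher and 39 lower at 24 h, where 13.3% of all genes tested were called higher and 37.1% lower (50.4% in either direction). The median log2 ratio was -0.58 for the members and -0.51 for all genes. Scaling by the median of ratios moved the all-gene medians to 0.32 at 12 h and -0.24 for this comparison, and the share of all calls that were higher from 50.6% to 60.9% and from 26.5% to 37.0%. Besides Unigene30642 (log2 ratio 4.91), the members with the largest rise were Unigene30786, from 0.51, 0.20 and 0 FPKM at 12 h to 6.72, 5.14 and 6.21 at 24 h, and Unigene64248. Unigene30786 had 3.97, 5.01 and 4.16 FPKM in control roots, so its low point was at 12 h. The largest falls were in Unigene19483, from 10.51, 11.42 and 10.83 FPKM at 12 h to 0.18, 0.09 and 0.35 at 24 h, in Unigene70125, and in Unigene23224, from 15.57, 16.22 and 15.05 to 0.92, 0.98 and 0.36. By limma these log2 ratios were -4.03 (SE 0.21, adjusted p = 1.31e-07), -3.95 (SE 0.11) and -3.72 (SE 0.31). All 3 had low control values, at most 1.96 FPKM, and were high only at 12 h among the groups outside 6 h.

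**Figure D5:**
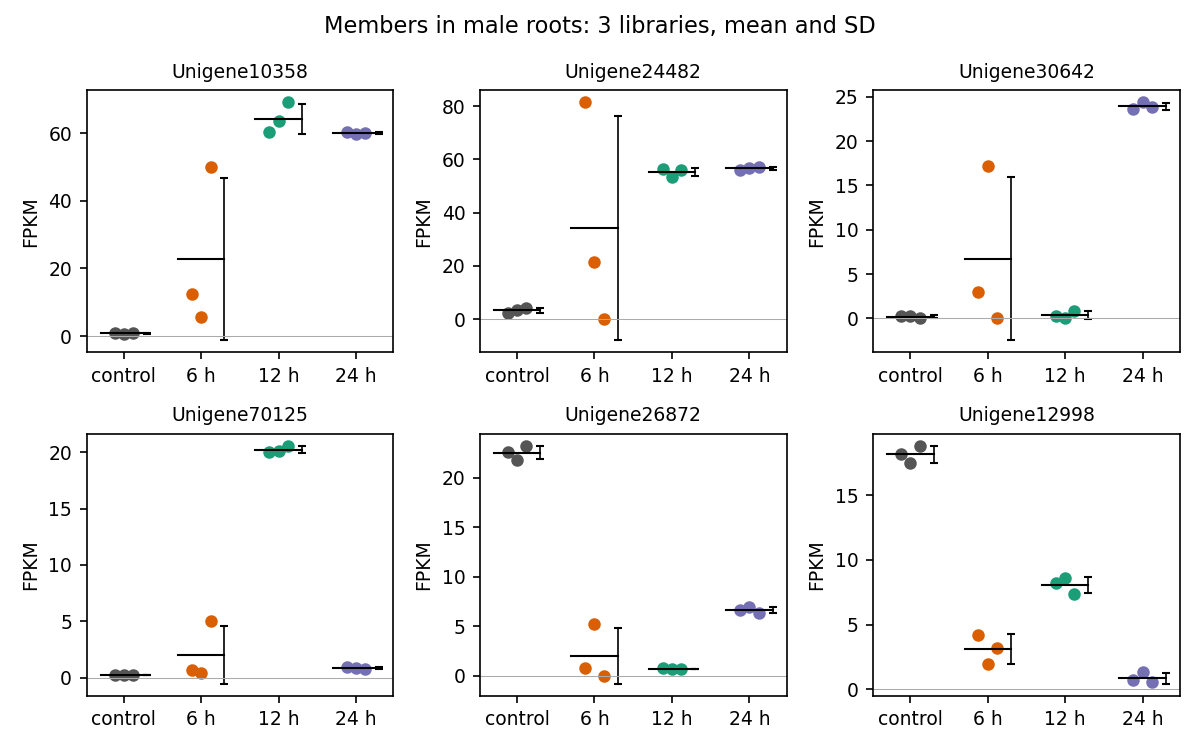
FPKM of 6 members in male roots: points are libraries, the horizontal line is the mean of 3 libraries and the error bar its SD, by group (control, and 6, 12 and 24 h of NaCl). Unigene10358 and Unigene24482 stay above 50 FPKM at 12 and 24 h, Unigene30642 is high at 24 h, Unigene70125 at 12 h, Unigene26872 and Unigene12998 are highest in control roots, and in all 6 genes the SD is largest at 6 h.

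At 6 h, 6 members were called higher and 7 lower than in control roots, where 6.9% of all genes tested were called higher and 11% lower (17.9% in either direction). Unigene53655 had 0, 0 and 1.10 FPKM in control roots and 6.38, 20.79 and 14.22 at 6 h, and stood at 0.57 to 3.31 at 12 and 24 h. All 6 h values were above all others, and the limma log2 ratio was 4.13 (SE 0.66, adjusted p = 0.016). Unigene10358, with 12.54, 5.49 and 50.06 FPKM at 6 h, had a log2 ratio of 3.59 (SE 0.78, adjusted p = 0.032 by limma). Unigene30929 had 0.92, 0.50 and 0.17 FPKM in control roots, 4.56, 21.02 and 5.25 at 6 h, 9.64, 8.19 and 7.63 after 12 h, and 7.74, 8.03 and 7.17 after 24 h. It was above its control range in all 9 NaCl libraries (log2 ratio 3.12 at 6 h, SE 0.66, adjusted p = 0.0303 by limma).

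The largest falls at 6 h among called members were in Unigene26872 (log2 ratio -3.91, SE 0.88, adjusted p = 0.0342), Unigene12998 (-2.42, SE 0.29, adjusted p = 0.00974) and Unigene23702 (-2.35, SE 0.36, adjusted p = 0.0146), all by limma. Unigene23702 had 3.0, 3.07 and 3.38 FPKM in control roots, 0.39, 0.32 and 0 at 6 h, 0.16, 0.20 and 0.37 after 12 h, and 1.66, 1.79 and 2.22 after 24 h. The 6 h and 12 h values overlapped, and both lay below the 24 h and the control values. Without the third 6 h library the calls at 6 h were 6 higher and 9 lower. Without any single control library limma called 0 members and 0 of all 63579 genes. At an unadjusted p under 0.05 there were then 15 to 18 members and 15597 to 15755 genes, against 22 and 23147 with all 6 libraries.

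None of the 150 was among the 157 genes that the study listed as responsive to reactive oxygen species or salt, a list chosen on these samples. The members are 150 of 139844 genes, so at that share a list of 157 genes would most often hold none of them. The absence is therefore not read as a result about the members. Of the 139844 genes, 10869 were at 0 in all 12 female libraries. A single gene of that list was at 0 in all 12 female libraries, Unigene13808, whose nearest protein match there is a cytosolic L-ascorbate peroxidase, an enzyme that reduces hydrogen peroxide with ascorbate. It had 1.74, 3.65 and 3.17 FPKM at 24 h, 1.57 in the second 6 h library and 0 in the other 8 male libraries. It was thus read mainly at 24 h, and its control and 12 h means of 0 kept it out of the 150.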

How the data were processed

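Root RNA of 24 libraries was sequenced and assembled with Trinity by the authors, who deposited FPKM values for each contig and single unigene (1 table of 253209 rows). Their methods name RPKM. An aligner or quantifier is not named in the sources used. Read numbers are not stated, so the depth of a library is unknown; FPKM summed to 663314 to 778064 per library. Columns were assigned by their labels. Contigs of a cluster were summed (20753 clusters and 119091 single unigenes) and values were used with no further scaling.

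Members and lists were chosen with earlier results of these data known. Genes at 0 in all female libraries were ranked by the lowest male group mean, and ties were resolved by ID. Named genes were the 10 with the highest score, ranks 148 to 153, the 3 largest called rises and falls of each comparison, the extremes of variation and of the 6 h ratio, the 3 clusters with most contigs, neighbours by number, and listed genes. The other named genes (the remaining clusters, 3 genes with a female trace, Unigene13808) and the ranges of unigene numbers were chosen after their values were seen.

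Male groups were compared with limma 3.58.1 (R 4.3.3; lmFit, eBayes with trend) on log2(FPKM + 0.5), the 6 h comparison on 6 libraries and the others in 1 model of 9. Female libraries stayed out, since their zeros have no spread. Alternatives were other pseudocounts, filters, thresholds, scaling, models, each replicate left out, the replicate number as a block, and other rules of membership; other tie orders and marker limits were added after seeing the data. Python 3.11.15, numpy 2.4.6, pandas 2.3.3 and matplotlib 3.10.9 were used.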

Additional observations from a re-analysis of the deposited data

How the results depend on the processing

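The calls at 6 h were the least stable. In place of 6 members higher and 7 lower, an FDR threshold of 0.01 gave 0 and 1, no filter 2 and 4, a filter of 5 FPKM in at least 3 male libraries 3 and 2, and 1 model of all 24 libraries, in which the female zeros enter the error, 18 and 24; 1 model of all 12 male libraries gave 14 lower. Leaving out each replicate in turn gave 0 to 9 higher and 0 to 12 lower, with 0 whenever a control library was left out and 12 lower without the first 6 h library. Same-numbered libraries did not deviate together (correlations of -0.0095 to 0.0233 over 18 pairs), so the numbers do not pair them; with the replicate number as a block, limma called 0 members in each direction at 6 h (21 at an unadjusted p under 0.05), and the counts of the other comparisons did not change. The filter of 5 FPKM, under which fewer members were tested, left 13 higher with 7 lower at 12 h, 8 with 9 at 24 h, and 4 with 14 between 12 and 24 h. At 24 h, scaling by the median of ratios gave 25 higher and 18 lower, and the 12-library model 9 higher. Leaving out a replicate gave 32 to 35 higher and 29 to 32 lower at 12 h, 14 to 16 and 30 to 33 at 24 h, and 14 to 16 and 37 to 42 between 12 and 24 h. Of the log2 ratios of named genes recomputed under the alternatives, 341 kept their call, 35 lost it, all at 6 h, and 0 turned direction. Of the 150 members, 42 would be chosen by the lowest of the 12 male libraries and 61 with each contig as its own feature. The other rules kept 101 to 149, and leaving out each male library in turn 123 to 143. With a limit of 0.1 FPKM for marking genes, 20 of 64 male-marking genes were at 0 in the third and 7 of 52 in the second 6 h library, and with 1 FPKM 5 of 7 and 3 of 5, beside 42 of 98 and 6 of 62 female-marking genes above 0. Outside the 6 h group, male NaCl 24 h replicate 2 had 9 of 52 male-marking genes at 0 with 0.1 FPKM. With 1 FPKM, male control replicate 1 had 7 of 63 female-marking genes above 0. The second 6 h library thus lay within the range of the other male groups with 7 of 52 and 6 of 62. It lay outside with 3 of 5 male-marking genes at 0, where the libraries of the other male groups had 0. With 0.1 FPKM it also lay outside for female-marking genes above 0, with 95 of 715 against at most 20 of 640. Read numbers are unknown, so 0 FPKM cannot be told apart from a level below what the depth could show.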
